A study of Mus musculus with 9 samples.

Results

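The genes described here are the collagen chains, the laminin chains and the integrin subunits of the mouse liver, 81 of the 23440 genes analysed. They were chosen by symbol alone, as every gene named Col with an alpha chain number, Lama, Lamb or Lamc with a number, or Itga or Itgb with a number or letter. They comprise 44 collagen genes, 11 laminin genes and 26 integrin genes. Liver RNA of C57Bl6 mice was sequenced in 9 libraries, 3 for each of 3 groups: aged mice of 20 to 22 months fed chow with PD-0332991 for 2 weeks (treated), aged mice of the same age on standard chow (aged untreated), and mice of 2 months on standard chow (young). PD-0332991, also called palbociclib, is a CDK4/6 inhibitor, a drug that blocks the kinases driving cells into the cycle, and its amount in the chow reads 450 mg/k in the labels. The series is titled for Cdk4 in age-associated fatty liver, and its design asks how the aged liver differs from the young one and how the drug changes the aged liver. The drug was given to aged mice only, so treated livers differ from young ones in both age and drug. The values are TPM, a relative abundance that already accounts for transcript length.

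Collagens are helical trimers that form fibrils or sheets outside the cell, and laminins are trimers of an alpha, a beta and a gamma chain that organise basement membranes. Integrins are pairs of an alpha and a beta subunit in the plasma membrane that bind these proteins and link them to the actin skeleton. In the liver, hepatocytes face the sinusoids across a thin matrix without a continuous basement membrane, and the stellate cells of that space are known as the main makers of fibrillar collagen when the organ scars.

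The promoters of 3 members are shown because each of them is a gene whose level passed the test in a comparison with the aged untreated livers. They are the bases before the start that the RefSeq table of GRCm38.p6 gives, 5′ to 3′ on the strand of the gene. Capitals mark matches, on either strand, to 3 motifs of general promoters: the TATA box, searched as TATAAA, the box named for its letters, searched as CCAAT, and the GC box, searched as GGGCGG. For Col3a1 the window is chr1:45311288-45311537 on the plus strand, for Col5a3 it is chr9:20815118-20815317 on the minus strand, and for Itga5 it is chr15:103366792-103367041 on the minus strand.
Col3a1: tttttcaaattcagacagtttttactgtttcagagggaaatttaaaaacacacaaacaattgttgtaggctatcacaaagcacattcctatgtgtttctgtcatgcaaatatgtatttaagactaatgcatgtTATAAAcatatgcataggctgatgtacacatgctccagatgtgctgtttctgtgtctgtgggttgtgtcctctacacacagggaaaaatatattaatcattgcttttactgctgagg
Col5a3: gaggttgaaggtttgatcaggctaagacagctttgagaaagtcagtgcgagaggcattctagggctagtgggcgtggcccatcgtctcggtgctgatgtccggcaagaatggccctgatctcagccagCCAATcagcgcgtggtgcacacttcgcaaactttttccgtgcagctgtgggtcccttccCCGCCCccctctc
Itga5: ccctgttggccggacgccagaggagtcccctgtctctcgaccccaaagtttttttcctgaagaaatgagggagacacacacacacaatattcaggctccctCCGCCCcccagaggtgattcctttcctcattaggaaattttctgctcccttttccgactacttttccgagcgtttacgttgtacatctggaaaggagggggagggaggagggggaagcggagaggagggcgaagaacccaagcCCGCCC
The Col3a1 window held 1 match to TATAAA, whose first base lies 117 bases before the start, and none to the other motifs. The 200 bases printed for Col5a3, which leave out 50 bases that lie inside the gene's RefSeq span, held 1 match to CCAAT, 122 bases before the start, and 1 to GGGCGG on the opposite strand, 63 bases before it. Both of these distances include the 50 bases left out of the print. The Itga5 window held 2 matches to GGGCGG on the opposite strand, 149 and 6 bases before the start, and none to the other motifs. Among 32851 promoters of the table, 250 bases before the start held TATAAA in 12.4%, CCAAT in 33.8% and GGGCGG in 32.7%, on either strand. Matches to different motifs can share bases, and none of those printed do. These matches describe letters only.

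Most of the 81 genes were low in whole liver. Col2a1, Col19a1 and Col26a1 were listed at 0 in all 9 libraries, and 48 members, those 3 included, never reached 1 TPM. A further 9 members reached 1 TPM in 1 or 2 libraries. The remaining 24 had 1 TPM or more in at least 3 libraries and were tested, among them 12 collagens, 2 laminins and 10 integrins. Every tested member had 1 TPM or more in libraries of more than 1 group. Col1a1 reached it in 3 young, 1 aged untreated and 0 treated libraries, so for Col1a1 the young libraries alone were enough. Col18a1 held most of the collagen signal and Itgb1 with Itgb5 most of the integrin beta signal, as the plot of levels by family shows.

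**Figure D1:**
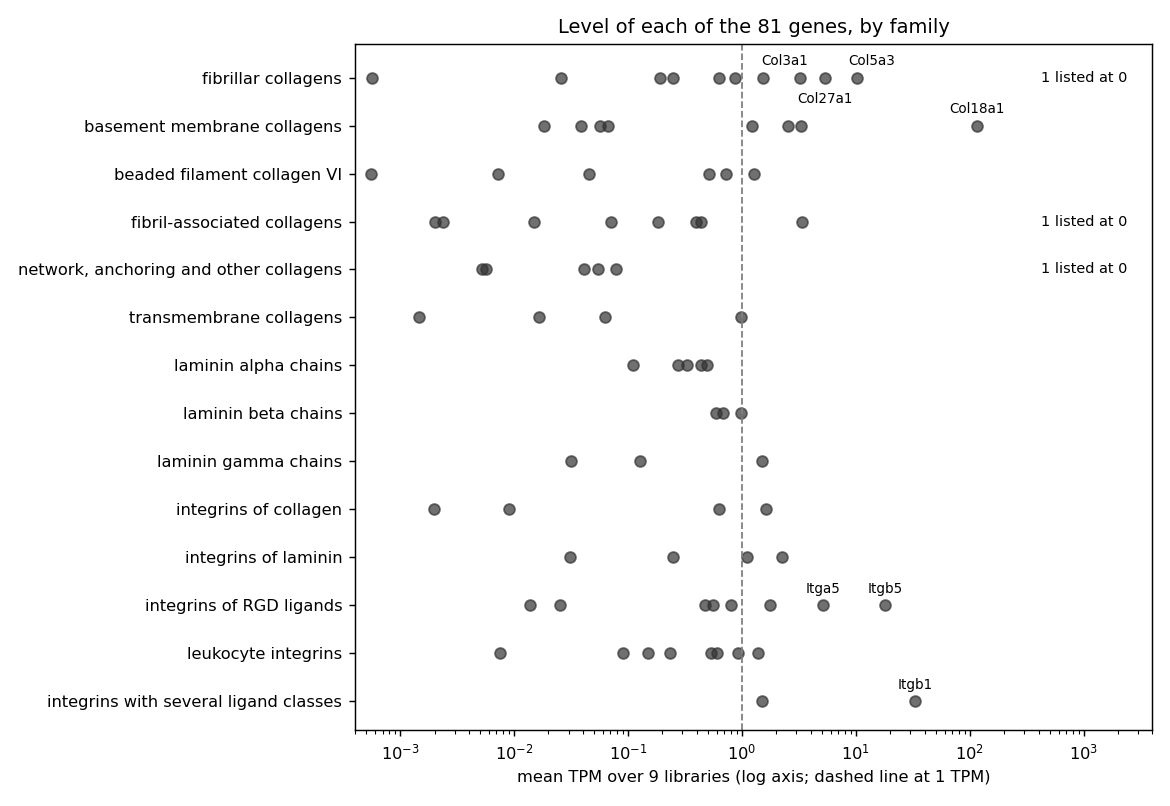
Mean TPM over the 9 libraries (log axis) of each member, a point per gene, by family; the dashed line stands at 1 TPM and the 3 genes listed at 0 in all libraries are given as text. Col18a1 lies far to the right of the other collagens and Itgb1 and Itgb5 to the right of the other integrins, while 48 genes never reached 1 TPM in a library.

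Over the whole series, limma on log2(TPM + 0.5) values with Benjamini-Hochberg adjustment called 147 of 10161 genes in treated against aged untreated livers (1.45%), 112 in aged untreated against young livers (1.1%) and 699 in treated against young livers (6.88%). The median log2 fold change of all genes was -0.09 in the first of these comparisons, -0.01 in the second and -0.10 in the third. Median-of-ratios scaling moved the median of all genes to 0.01 in treated against aged untreated livers and to 0.02 in treated against young livers. It also turned the split of calls in treated against aged untreated livers, which was 62 higher and 85 lower as deposited, to 118 higher and 53 lower, and quantile normalization turned it to 88 higher and 56 lower. The split in treated against young livers was 263 higher and 436 lower as deposited, 387 and 224 with median-of-ratios scaling, and 308 and 310 with quantile normalization. Leaving out 1 library at a time gave 7 to 392 calls in the first comparison, 15 to 696 in the second and 151 to 1263 in the third. The fewest came without treated replicate 2 in treated against either untreated group and without young replicate 1 in aged untreated against young livers, and the most without aged untreated replicate 3 in all 3. The listed TPM summed to 53.1% to 57.7% of the full TPM scale per library, and TPM keeps no depth, so the depth of the libraries is unknown. The hepatocyte gene Apoa1 was at 8990 to 12900 TPM, whereas Alb, albumin, was listed at 0 in every library, so a value of 0 is read here only as listed at 0. The labels name no individual mice, so the libraries of a group may be technical repeats and p-values cover the spread between them alone.

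Of the 24 tested members, 5 passed the test in at least 1 comparison, and each of them was lower in the group with the drug or with the higher age. In treated against aged untreated livers the fibronectin receptor gene Itga5 and the collagen V gene Col5a3 fell, 2 of 24, where 0.837% of all genes fell. In aged untreated against young livers the collagen III gene Col3a1 fell, 1 of 24, where 0.453% of all genes fell. In treated against young livers Col3a1, the collagen I gene Col1a2 and the collagen gene Col27a1 fell, 3 of 24, where 4.29% of all genes fell. No tested member rose in any of the 3 comparisons, where 0.61%, 0.65% and 2.59% of all genes rose in the order given. Itga4 and Itga8 were below the filter. Without the filter, or with the listed TPM rescaled to the full scale, Itga4 rose and Itga8 fell in treated against young livers. Whole liver RNA cannot tell fewer cells of a type from less RNA per cell.

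By direction without regard to the test, 21 of the 24 tested members had a log2 fold change below 0 in treated against aged untreated livers, against 66.7% of all genes. The count was 16 of 24 in aged untreated against young livers, against 52.1% of all genes, and 22 of 24 in treated against young livers, against 64.9% of all genes. The first of these counts depended on scaling: with median-of-ratios scaling it was 15 of 24, with Col3a1, Col4a2, Col6a1, Itga1, Itgav and Itgb1 changing sign, and with quantile normalization it was 14 of 24. Over the same scalings and the rescaled listed TPM, the count in aged untreated against young livers was 14 to 18 of 24 and that in treated against young livers 18 to 22 of 24. Over the tested members the median was -0.12 in treated against aged untreated livers, -0.10 in aged untreated against young livers and -0.25 in treated against young livers, beside -0.09, -0.01 and -0.10 for all genes. The plot of changes sets the first 2 comparisons side by side.

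**Figure D2:**
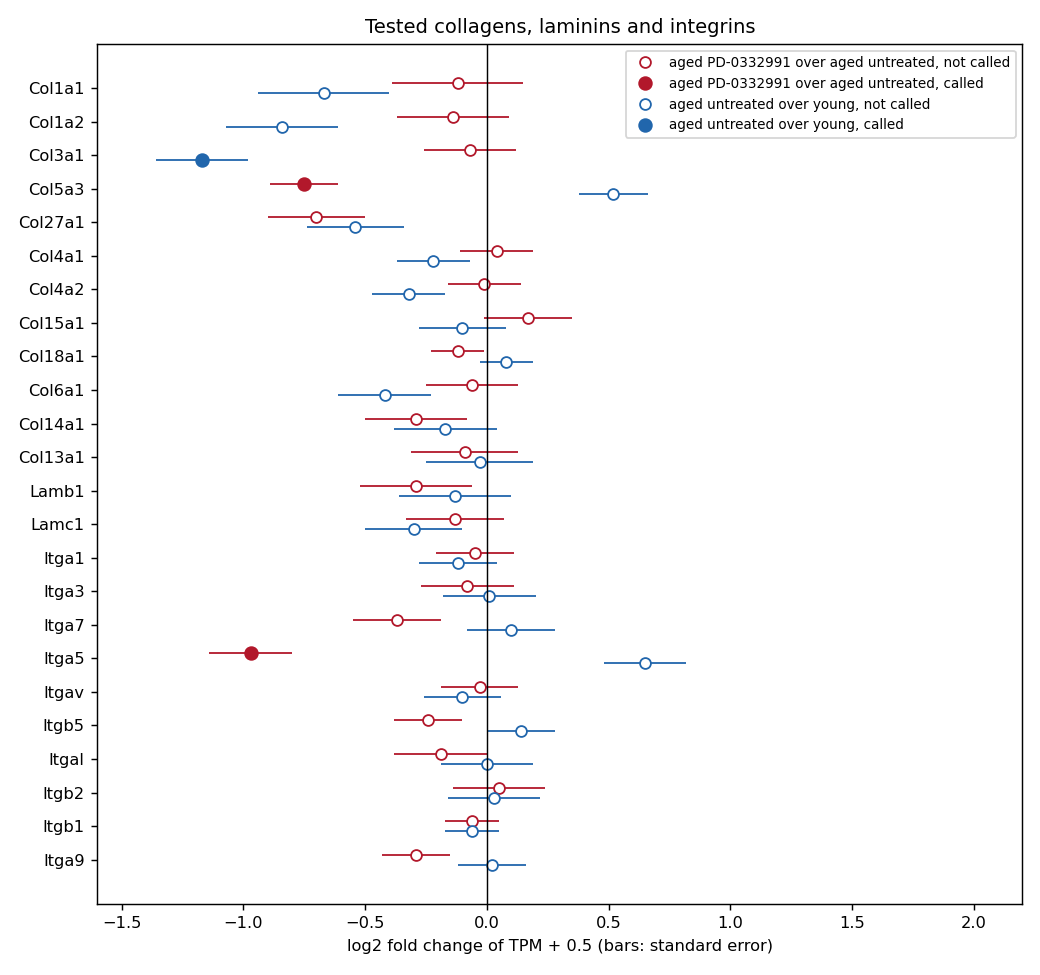
Log2 fold change on the log2(TPM + 0.5) scale, with its standard error from limma as a bar, of the 24 tested members in treated against aged untreated livers (red) and in aged untreated against young livers (blue); filled points passed the limma threshold. The filled points, Col5a3 and Itga5 in red and Col3a1 in blue, lie left of 0, and both comparisons use the aged untreated libraries.

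The collagen genes as a family summed to 140 ± 3.05 TPM in treated, 159 ± 10.5 TPM in aged untreated and 160 ± 15.3 TPM in young livers (mean ± SD, n = 3 libraries a group, here and below). Col18a1 held 76.4% to 80.9% of the collagen TPM in treated, 72.6% to 78% in aged untreated and 68.6% to 76.4% in young libraries. Without Col18a1 the collagens summed to 34, 28.4 and 26.5 TPM in treated livers, 35.4, 41.2 and 37.5 TPM in aged untreated livers and 53.3, 39.7 and 43.3 TPM in young livers. The treated libraries lay below the aged untreated ones in this sum, which includes Col5a3 and Col27a1, and the aged untreated libraries overlapped the young ones. No test was run on these sums, since the genes were chosen with earlier results known.

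The fibrillar collagens, which make the tension-bearing fibres of tissue, have 11 genes here. They included every collagen that passed the test, and 5 of them were tested. Their median log2 fold change was -0.14 in treated against aged untreated livers, -0.67 in aged untreated against young livers and -0.98 in treated against young livers, with 5, 4 and 5 of the 5 below 0. Col1a1, 1 of the 5, passed the filter through its young libraries, and the median of -0.67 is its own value. The summed level of the 11 genes was 17.6, 15 and 13.5 TPM in treated livers, 20.3, 25.7 and 24.7 TPM in aged untreated livers and 33.6, 24 and 25.5 TPM in young livers. The sum was lower in each treated library than in each of the 6 untreated ones, while the aged untreated and young libraries overlapped. Col5a3 and Col27a1 held most of it, with means of 7.8 and 2.96 TPM in treated livers. Their means were 13.5 and 5.16 TPM in aged untreated livers and 9.26 and 7.8 TPM in young livers. Col1a1, Col1a2 and Col3a1 went otherwise. Each overlapped between treated and aged untreated livers and was lower in every aged untreated library than in every young one. With quantile normalization, 3 of the 5 were below 0 in treated against aged untreated livers, with a median of 0.

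Col3a1 encodes the chain of type III collagen, which forms the reticulin fibres of the liver, and lies at chr1:45311538-45349706 in GRCm38.p6. Col3a1 had 2.71, 1.69 and 1.68 TPM in treated livers, 1.68, 2.35 and 2.36 TPM in aged livers without the drug and 6.56, 4.8 and 4.95 TPM in young livers. The 6 libraries of 20 to 22 months lay between 1.68 and 2.71 TPM, below all 3 young ones, and the treated and untreated aged libraries overlapped. The mean in aged untreated livers was 0.392 times that in young livers, a log2 fold change of -1.17 ± 0.19 (SE, adjusted p = 0.0186 by limma). In treated against young livers the mean ratio was 0.373, a log2 fold change of -1.25 ± 0.19 (SE, adjusted p = 0.00603 by limma). These 2 comparisons share the young libraries. Treated and aged untreated livers gave a log2 fold change of -0.07 ± 0.19 (SE, adjusted p = 0.877 by limma). The fall with age lost its call without young replicate 1, 2 or 3 (limma adjusted p = 0.095, 0.0566 and 0.0539), without aged replicate 1 (0.075) and without the filter on low genes (0.0517), where 0.368% of all genes were called, with log2 fold changes from -1.31 to -1.04 over 19 alternatives. The fall in treated against young livers kept its call in all 19 alternatives that tested the gene, with limma adjusted p from 0.0012 to 0.0334.

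Type I collagen, the main protein of scar fibrils, is built from the products of Col1a1 and Col1a2. Col1a2 lies at chr6:4505618-4541543. The libraries gave Col1a2 at 1.61, 0.663 and 0.853 TPM in treated livers, at 1.06, 1.53 and 0.889 TPM in aged untreated livers and at 2.58, 2.38 and 2.35 TPM in young livers. All 6 libraries of aged mice lay below the 3 young ones. In treated against young livers Col1a2 had a log2 fold change of -0.98 ± 0.23 (SE, adjusted p = 0.0287 by limma). In aged untreated against young livers it had a log2 fold change of -0.84 ± 0.23 (SE, adjusted p = 0.108 by limma), which did not pass. The call in treated against young livers was lost without young replicate 1, 2 or 3 (limma adjusted p = 0.101, 0.0751 and 0.0831), without treated replicate 2 or 3 (0.113 and 0.0917) and without the filter (0.0553).

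Col1a1 lies at chr11:94936224-94953042. For Col1a1 the values were 0.93, 0.24 and 0.612 TPM in treated livers, 0.604, 1.03 and 0.391 TPM in aged untreated livers and 1.67, 1.18 and 1.17 TPM in young livers. Here too the young libraries lay above all others, by a narrow margin over aged untreated replicate 2. Its differences did not pass the test, with a log2 fold change of -0.67 ± 0.27 (SE, adjusted p = 0.28 by limma) in aged untreated against young livers and a log2 fold change of -0.79 ± 0.27 (SE, adjusted p = 0.103 by limma) in treated against young livers. With only the 6 treated and young libraries in the fit, Col1a1 passed in that comparison (limma adjusted p = 0.0473), 1 of 19 alternatives. The 3 young libraries alone carried Col1a1 past the filter in that fit, with 0 treated libraries at 1 TPM. The pass is therefore not read as support. The ratio of Col1a1 over Col1a2 was 0.362 to 0.718 in treated, 0.44 to 0.674 in aged untreated and 0.497 to 0.648 in young libraries. The ratio overlapped between all groups.

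Col27a1, at chr4:63214009-63334991, encodes a fibrillar collagen best known from cartilage. In treated livers Col27a1 stood at 2.99, 3.42 and 2.47 TPM, in aged untreated livers at 4.34, 6.28 and 4.85 TPM and in young livers at 10.3, 6.24 and 6.85 TPM. The treated libraries lay below all 6 untreated ones, and aged untreated replicate 2 lay just above young replicate 2. The mean ratio in treated against young livers was 0.379, a log2 fold change of -1.24 ± 0.20 (SE, adjusted p = 0.00638 by limma), and this call held in all 20 alternatives with limma adjusted p from 0.00143 to 0.0311. The other 2 comparisons each gave a value below 0 that did not pass, a log2 fold change of -0.70 ± 0.20 (SE, adjusted p = 0.0995 by limma) for treated against aged untreated livers and a log2 fold change of -0.54 ± 0.20 (SE, adjusted p = 0.239 by limma) for aged untreated against young livers.

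Col5a3, at chr9:20770050-20815117, encodes a chain of type V collagen, a minor fibrillar collagen that assembles with type I. Its promoter is the one above with the CCAAT match. Col5a3 was at 8.28, 8.25 and 6.87 TPM in the treated libraries, 11.7, 13.4 and 15.3 TPM in the aged untreated ones and 10.7, 8.01 and 9.08 TPM in the young ones. The aged untreated libraries were the highest, above all treated and all young libraries, and the treated and young libraries overlapped. In treated against aged untreated livers the mean ratio was 0.578, a log2 fold change of -0.75 ± 0.14 (SE, adjusted p = 0.0252 by limma). In aged untreated against young livers it was 1.46, a log2 fold change of 0.52 ± 0.14 (SE, adjusted p = 0.108 by limma), which did not pass. Both of these comparisons use the aged untreated libraries, so a high value there moves them in opposite directions. The fall with the drug held in 13 of 20 alternatives, and the losses included the fits without aged untreated replicate 2 (limma adjusted p = 0.0811), without treated replicate 1, 2 or 3 (0.0556, 0.092 and 0.114), without the filter (0.0606) and with only the 2 groups compared in the fit (0.0637).

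The partner chains of type V collagen were lower: Col5a1 had a mean of 0.631 TPM and Col5a2 of 0.249 TPM over the 9 libraries. The ratio of Col5a3 over Col5a1 was 13.5 to 33.1 in treated, 19.6 to 26.5 in aged untreated and 9.5 to 14.7 in young libraries. The aged untreated values lay above all young ones, and the treated values overlapped both other groups. The other fibrillar genes, Col11a2 at 0.192 TPM, Col24a1 at 0.026 TPM and Col11a1 at 0.000563 TPM, known from cartilage and bone, stayed below the filter.

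**Figure D3:**
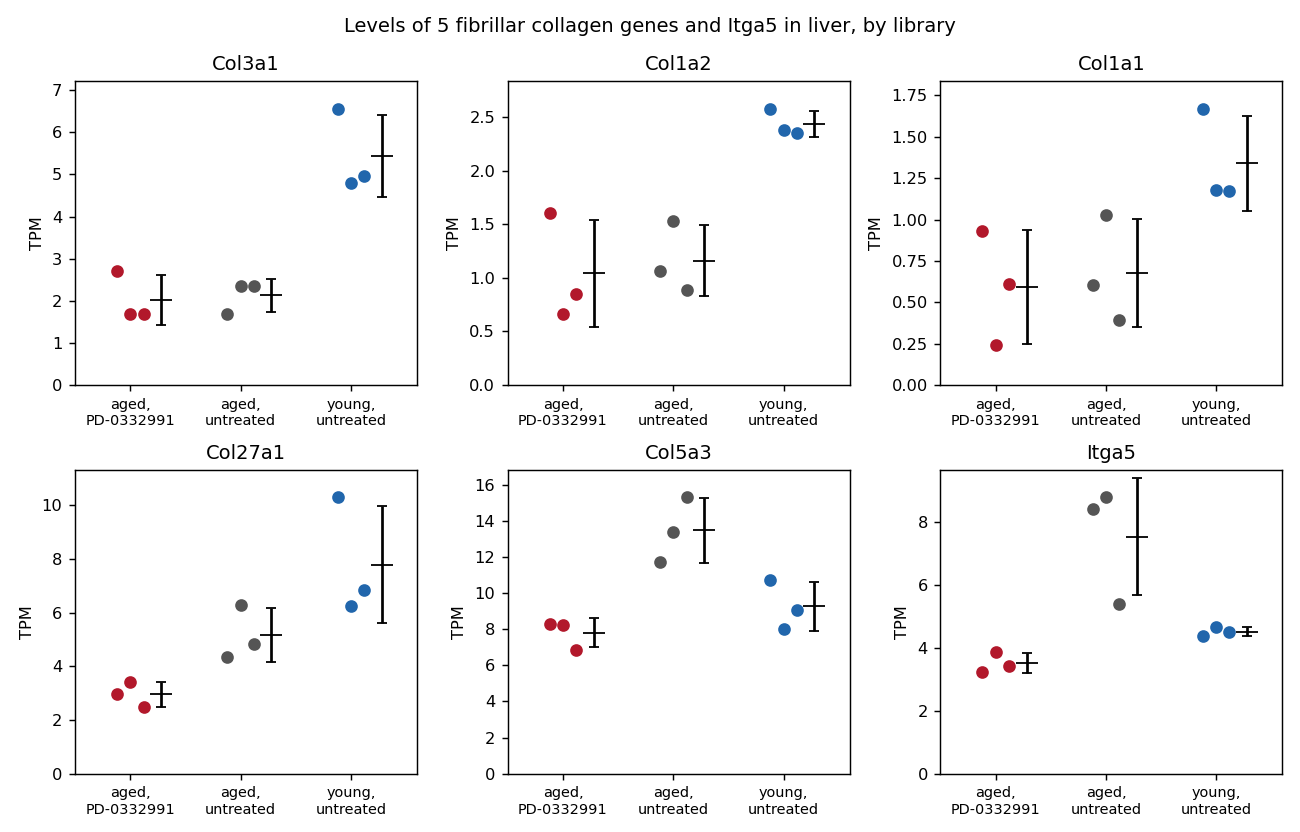
TPM in each of the 9 libraries, 3 per group, of 5 fibrillar collagen genes and Itga5, with the group mean ± SD as a bar beside the points; treated livers stand left, aged untreated in the middle and young on the right. Col3a1 and Col1a2 are highest in the 3 young libraries, and Col5a3 and Itga5 are highest in the 3 aged untreated libraries.

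The fibrillar genes were set beside markers of the cells known to make them. The 14 stellate cell markers were all tested and none was called in any comparison, none was at 0, and their summed level was 102 to 147 TPM in treated, 117 to 166 TPM in aged untreated and 150 to 155 TPM in young libraries. Treated replicate 1 had the highest stellate sum of its group, and it was also the highest library of its group for 9 of the 12 tested collagens, against 35% of all genes tested. Aged untreated replicate 2 had the highest stellate sum of its group and was highest for 5 of the 12 collagens, against 32.6% of all genes. Young replicate 1 was the highest young library for 8 of the 12, against 33.7% of all genes. The 10 markers of portal fibroblasts and smooth muscle summed to 26.7 to 31.4 TPM in treated, 18.3 to 24.4 TPM in aged untreated and 18.7 to 24.7 TPM in young libraries, with Cnn1 at 0 in some libraries. Of the 10, 4 were tested, and in treated against young livers 2 were above 0 and 2 below. Gas6 was the one called there, and it rose (log2 fold change 0.98, limma adjusted p = 0.0107), where 2.59% of all genes rose. Over all 10 listed, 1 lay higher and 2 lower without overlap in that comparison, where 7.16% of genes lay higher and 20.2% lower. In treated against aged untreated livers none was called, and of the 4 tested 3 were above 0 and 1 below. Over all 10 listed, 2 lay higher and 2 lower there, against 4.57% and 12.8% of genes. The part of these cell types in the collagen values was not tested.

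Basement membrane collagens have 8 genes here, of which 4 were tested and none was called in any comparison. Col18a1, the chain of a heparan sulfate proteoglycan of basement membranes whose cleaved end is endostatin, was the most abundant member of the 81. It lies at chr10:77052178-77166530. Col18a1 had 110, 110 and 112 TPM in treated livers, 120, 109 and 133 TPM in aged livers without the drug and 116, 128 and 99.1 TPM in young livers. The groups overlapped, and the log2 fold changes were -0.12 in treated against aged untreated, 0.08 in aged untreated against young and -0.04 in treated against young livers (limma adjusted p from 0.612 to 0.851).

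Col4a1 and Col4a2 encode the chains of the common type IV collagen network, and their annotated starts lie 21 bases apart on opposite strands of chromosome 8 with an overlap of the genes, where reads counted without strand cannot be told apart. The libraries gave Col4a1 at 3.91, 2.89 and 2.79 TPM in treated livers, at 3.25, 3.21 and 2.75 TPM in aged untreated livers and at 3.64, 3.26 and 4.1 TPM in young livers. For Col4a2 the values were 2.47, 2.1 and 2.3 TPM in treated livers, 2.58, 2.38 and 2.01 TPM in aged untreated livers and 3.39, 2.53 and 3.18 TPM in young livers. Col4a1 was lower in each aged untreated library than in each young one, with a log2 fold change of -0.22 ± 0.15 (SE, adjusted p = 0.534 by limma), and Col4a2 was lower in each treated library than in each young one, with a log2 fold change of -0.34 ± 0.15 (SE, adjusted p = 0.19 by limma). Neither passed. The ratio of Col4a1 over Col4a2 was 1.21 to 1.58 in treated, 1.26 to 1.37 in aged untreated and 1.07 to 1.29 in young libraries. Col15a1, a relative of Col18a1, was at 0.799 to 1.5 TPM over the 9 libraries with log2 fold changes of 0.17 in treated against aged untreated, -0.10 in aged untreated against young and 0.07 in treated against young livers (limma adjusted p from 0.657 to 0.855). The chains Col4a3, Col4a4, Col4a5 and Col4a6, which replace the common chains in kidney and other epithelia, had means from 0.0182 to 0.0661 TPM.

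Type VI collagen, whose chains form beaded filaments around cells, was represented above the filter by Col6a1. In treated livers Col6a1 stood at 1.17, 0.953 and 0.977 TPM, in aged untreated livers at 0.973, 1.32 and 1.02 TPM and in young livers at 2.29, 1.4 and 1.35 TPM. All 6 libraries of aged mice lay below the 3 young ones, with a log2 fold change of -0.42 ± 0.19 (SE, adjusted p = 0.333 by limma) for aged untreated and a log2 fold change of -0.48 ± 0.19 (SE, adjusted p = 0.147 by limma) for treated against young livers, and neither passed. Its partner chains Col6a2 and Col6a3 were below the filter. Col6a2 was at 0.497, 0.637 and 0.499 TPM in the treated libraries, 0.384, 0.742 and 0.597 TPM in the aged untreated ones and 1.45, 1.14 and 0.512 TPM in the young ones. Col6a3 had 0.8, 0.452 and 0.461 TPM in treated livers, 0.353, 0.533 and 0.269 TPM in aged livers without the drug and 0.592, 0.541 and 0.633 TPM in young livers. For Col6a3 the aged untreated libraries lay below the young ones, and for Col6a2 all groups overlapped. Col6a4, Col6a5 and Col6a6 had means from 0.000559 to 0.0455 TPM.

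Among the fibril-associated collagens, which coat the surface of fibrils, Col14a1 was the one tested. The libraries gave Col14a1 at 3.47, 2.12 and 2.48 TPM in treated livers, at 2.78, 4.38 and 3.06 TPM in aged untreated livers and at 4.42, 3.05 and 4.18 TPM in young livers. The groups overlapped and the log2 fold changes were -0.29 in treated against aged untreated, -0.17 in aged untreated against young and -0.47 in treated against young livers (limma adjusted p from 0.189 to 0.754). For Col16a1 the values were 0.607, 0.456 and 0.327 TPM in treated livers, 0.36, 0.409 and 0.508 TPM in aged untreated livers and 0.495, 0.326 and 0.421 TPM in young livers. In treated livers Col20a1 stood at 0.471, 0.766 and 0.565 TPM, in aged untreated livers at 0.503, 0.135 and 0.228 TPM and in young livers at 0.354, 0.256 and 0.294 TPM. Col16a1 overlapped between groups, whereas Col20a1 was higher in each treated library than in each young one. The remaining genes of this family had means of 0.184 TPM or less.

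The transmembrane collagens anchor epithelial and nerve-muscle contacts, and Col13a1 was the one tested. Col13a1 was at 0.757, 1.04 and 0.897 TPM in the treated libraries, 1.54, 0.853 and 0.68 TPM in the aged untreated ones and 0.814, 1.15 and 1.08 TPM in the young ones. Its log2 fold changes were -0.09 in treated against aged untreated, -0.03 in aged untreated against young and -0.12 in treated against young livers (limma adjusted p from 0.788 to 0.972). Col23a1 had 0, 0.0268 and 0.062 TPM in treated livers, 0.0487, 0 and 0 TPM in aged livers without the drug and 0, 0.0106 and 0 TPM in young livers. The libraries gave Col25a1 at 0.161, 0.0386 and 0.0431 TPM in treated livers, at 0.164, 0.0176 and 0.0628 TPM in aged untreated livers and at 0.0235, 0.0258 and 0.028 TPM in young livers. Both were far under 1 TPM, and Col25a1 was higher in each treated library than in each young one. Col17a1, of the hemidesmosomes of skin, had a mean of 0.00145 TPM.

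Outside type IV, no network-forming or anchoring collagen reached the filter. Col7a1 forms the anchoring fibrils of skin, and Col8a1 and Col8a2 form the sheets under corneal endothelium. For Col7a1 the values were 0.0414, 0.1 and 0.122 TPM in treated livers, 0.0879, 0.0406 and 0.0525 TPM in aged untreated livers and 0.11, 0.0544 and 0.0953 TPM in young livers. In treated livers Col8a1 stood at 0.0148, 0 and 0 TPM, in aged untreated livers at 0.112, 0.152 and 0 TPM and in young livers at 0.0551, 0.102 and 0.0489 TPM. Col8a2 was at 0.0264, 0.00979 and 0 TPM in the treated libraries, 0, 0.0402 and 0.0351 TPM in the aged untreated ones and 0.101, 0.0935 and 0.0607 TPM in the young ones. Col8a2 was lower in each library of aged mice, treated or untreated, than in each young one. Col10a1 and Col28a1 had means of 0.00521 and 0.00564 TPM.

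Of the 11 laminin genes 2 were tested and none was called. The family summed to 5.21, 4.03 and 4.82 TPM in treated livers, 4.41, 6.91 and 5.37 TPM in aged untreated livers and 7.44, 5.47 and 6.45 TPM in young livers. The sums overlapped between all pairs of groups except treated against young, where the highest treated value, 5.21 TPM, lay below the lowest young one, 5.47 TPM. Lamb1 and Lamc1 encode the beta and gamma chains used by most laminins outside skin. Lamb1 had 1.03, 0.471 and 0.772 TPM in treated livers, 0.684, 1.39 and 1.03 TPM in aged livers without the drug and 1.32, 0.987 and 1.17 TPM in young livers. The libraries gave Lamc1 at 1.3, 1.17 and 1.23 TPM in treated livers, at 1.12, 1.95 and 1.23 TPM in aged untreated livers and at 2.29, 1.43 and 1.9 TPM in young livers. Lamc1 was lower in each treated library than in each young one, with a log2 fold change of -0.43 ± 0.20 (SE, adjusted p = 0.199 by limma), and Lamb1 overlapped between all groups, with a log2 fold change of -0.42 ± 0.23 (SE, adjusted p = 0.277 by limma) in the same comparison. Neither passed.

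Every laminin alpha chain, the part of the trimer that integrins bind, stayed below the filter. Lama3, an alpha chain of epithelial laminin, Lama4, of vessel walls, and Lama1, of embryonic basement membranes, were the highest of the 5. For Lama3 the values were 0.557, 0.258 and 0.431 TPM in treated livers, 0.48, 0.472 and 0.409 TPM in aged untreated livers and 0.571, 0.366 and 0.845 TPM in young livers. In treated livers Lama4 stood at 0.437, 0.512 and 0.28 TPM, in aged untreated livers at 0.293, 0.486 and 0.25 TPM and in young livers at 0.598, 0.546 and 0.53 TPM. Lama1 was at 0.336, 0.182 and 0.241 TPM in the treated libraries, 0.278, 0.446 and 0.491 TPM in the aged untreated ones and 0.269, 0.329 and 0.373 TPM in the young ones. Lama4 was lower in each aged library, treated or untreated, than in each young one, and the other 2 overlapped. Lama5 and Lama2 had means of 0.274 and 0.111 TPM.

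The other beta and gamma chains were also below the filter. The product of Lamb3 joins that of Lama3 in epithelial laminin. Lamb2 had 0.64, 0.629 and 0.748 TPM in treated livers, 0.628, 0.632 and 0.317 TPM in aged livers without the drug and 1.11, 0.763 and 0.614 TPM in young livers. The libraries gave Lamb3 at 0.403, 0.429 and 0.824 TPM in treated livers, at 0.531, 0.552 and 1.03 TPM in aged untreated livers and at 0.452, 0.54 and 0.606 TPM in young livers. For Lamc3 the values were 0.133, 0.111 and 0.0668 TPM in treated livers, 0.102, 0.314 and 0.0698 TPM in aged untreated livers and 0.22, 0.105 and 0.0338 TPM in young livers. All 3 overlapped between every pair of groups.

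The integrin alpha genes summed to 14.6, 16.1 and 14.6 TPM in treated livers, 21.3, 20.5 and 18 TPM in aged untreated livers and 19.1, 16.2 and 17.8 TPM in young livers, and the beta genes to 54.4, 48 and 50.2 TPM in treated livers, 51.8, 57.8 and 56.7 TPM in aged untreated livers and 52.6, 52.6 and 58.8 TPM in young livers. Each treated library lay below each untreated one for the alpha sum, by 16.1 against 16.2 TPM at the closest, and the beta sums overlapped. The alpha sum averaged 15.1 TPM in treated, 19.9 TPM in aged untreated and 17.7 TPM in young livers. Itga5 alone averaged 3.52, 7.52 and 4.51 TPM in the same order. The order of the groups in this sum is therefore not read as a trait of all 18 genes. Itgb1 and Itgb5 held 94.2% to 95.9% of the integrin beta TPM in treated, 95% to 96% in aged untreated and 95.3% to 96.4% in young libraries. Of 26 integrin genes, 10 were tested, and Itga5 was the one called. The integrins had a median log2 fold change of -0.13 in treated against aged untreated livers, 0.01 in aged untreated against young livers (-0.01 with the listed TPM rescaled to the full scale) and -0.15 in treated against young livers.

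**Figure D4:**
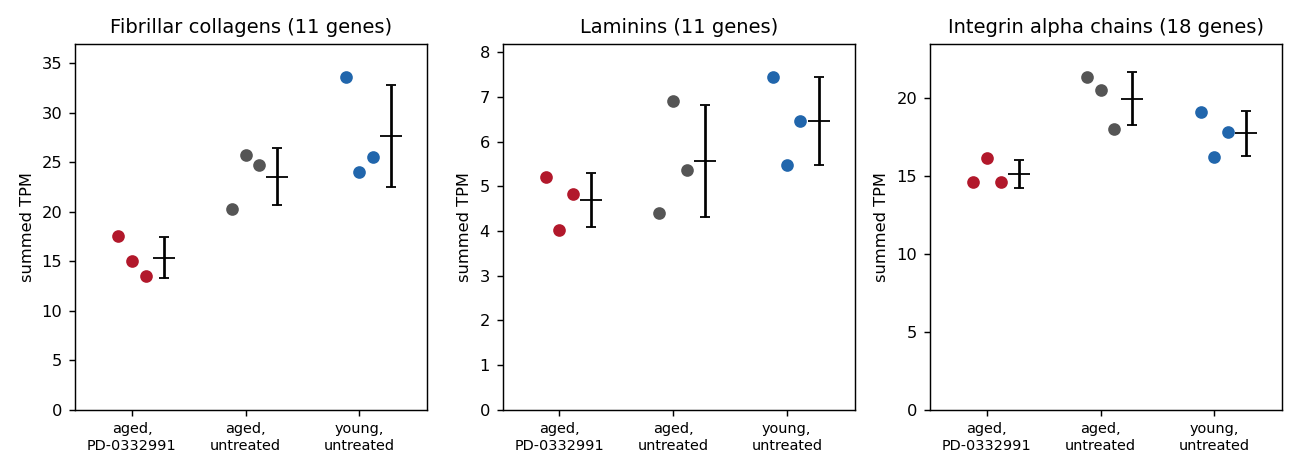
Summed TPM of the fibrillar collagens, the laminins and the integrin alpha chains in each of the 9 libraries, 3 per group, with treated livers left, aged untreated in the middle and young on the right; the bars are the group mean ± SD. The treated libraries lie lowest in the fibrillar collagen sum and in the integrin alpha sum. Col5a3 and Col27a1 are large parts of the fibrillar sum, and Itga5 is part of the alpha sum.

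Itga5 encodes the alpha subunit that pairs with the product of Itgb1 to form the classical fibronectin receptor, and lies at chr15:103344286-103366791, next to the promoter above that ends in a GGGCGG match. In treated livers Itga5 stood at 3.24, 3.87 and 3.43 TPM, in aged untreated livers at 8.39, 8.77 and 5.38 TPM and in young livers at 4.37, 4.67 and 4.49 TPM. Each treated library was below each of the other 6, and the aged untreated libraries were above all others. In treated against aged untreated livers the mean ratio was 0.468, a log2 fold change of -0.97 ± 0.17 (SE, adjusted p = 0.0215 by limma). In aged untreated against young livers it was 1.67, a log2 fold change of 0.65 ± 0.17 (SE, adjusted p = 0.0986 by limma), which did not pass, and in treated against young livers 0.779, a log2 fold change of -0.32 ± 0.17 (SE, adjusted p = 0.263 by limma). The first 2 of these comparisons share the aged untreated libraries. The fall with the drug lost its call without aged untreated replicate 2 (limma adjusted p = 0.0716), without treated replicate 1, 2 or 3 (0.0609, 0.0728 and 0.0814), without the filter (0.0564) and with only the 2 groups in the fit (0.0762). The difference between aged untreated and young livers passed without aged untreated replicate 3, whose 5.38 TPM was the lowest of its group (log2 fold change 0.86, limma adjusted p = 0.00342), and with array weights (0.78, 0.011).

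Itgb1, the beta partner of most receptors for collagen, laminin and fibronectin, lies at chr8:128685654-128733579. Itgb1 was at 31.3, 31.1 and 32.3 TPM in the treated libraries, 31.1, 37.6 and 30.7 TPM in the aged untreated ones and 31.6, 33.3 and 38.7 TPM in the young ones. The groups overlapped, with log2 fold changes of -0.06 in treated against aged untreated, -0.06 in aged untreated against young and -0.12 in treated against young livers (limma adjusted p from 0.524 to 0.849). The ratio of Itga5 over Itgb1 was 0.104 to 0.125 in treated, 0.175 to 0.27 in aged untreated and 0.116 to 0.14 in young libraries. The ratio was highest in the aged untreated libraries, with no overlap with either of the other groups. Fn1, the gene of fibronectin, was added after its values were seen, as the ligand of this receptor. It averaged 90 ± 6.67 TPM in treated, 89.5 ± 14.4 TPM in aged untreated and 82.3 ± 7.98 TPM in young livers.

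Among the other integrins of RGD ligands, which recognise the same short motif in fibronectin and vitronectin, Itgb5 and Itgav form a vitronectin receptor. Itgb5 had 20, 14.3 and 15.8 TPM in treated livers, 18.1, 17.9 and 23.2 TPM in aged livers without the drug and 18.5, 17.4 and 17.3 TPM in young livers. The libraries gave Itgav at 1.66, 1.59 and 1.73 TPM in treated livers, at 1.83, 2.04 and 1.3 TPM in aged untreated livers and at 1.87, 1.71 and 2.02 TPM in young livers. Both genes overlapped between all groups, with log2 fold changes in treated against aged untreated livers of -0.24 for Itgb5 and -0.03 for Itgav. Itga2b and Itgb3, the fibrinogen receptor of platelets, had means of 0.794 and 0.474 TPM. The 6 platelet markers summed to 1.3 to 2.12 TPM in treated, 1.49 to 2.99 TPM in aged untreated and 2.7 to 4.03 TPM in young libraries, with Gp9, Gp5 and Treml1 at 0 in some. Pf4, the only 1 of the 6 tested, fell in treated against young livers (log2 fold change -1.20, limma adjusted p = 0.024), where 4.29% of all genes fell. Itgb8 and Itgb6, partners of Itgav in the activation of latent TGF-beta, had means of 0.0253 and 0.0138 TPM.

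Itga8, a receptor subunit for nephronectin that stellate cells are known to express, is named because it was called once the filter was dropped, a choice made after its values were seen. For Itga8 the values were 0.389, 0.242 and 0.24 TPM in treated livers, 0.224, 0.622 and 0.377 TPM in aged untreated livers and 1.06, 0.778 and 1.1 TPM in young livers. All 6 libraries of aged mice lay below the 3 young ones. Without the filter its log2 fold change was -0.90 in treated against young livers (limma adjusted p = 0.0401), where 2.94% of genes were called.

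Itga9, a receptor subunit for tenascin and other ligands, was a tested member without overlap. In treated livers Itga9 stood at 1.37, 1.21 and 1.15 TPM, in aged untreated livers at 1.61, 1.63 and 1.66 TPM and in young livers at 1.52, 1.66 and 1.65 TPM. Each treated library lay below each of the other 6, and the aged untreated values differed from each other by little. Its log2 fold change in treated against aged untreated livers was -0.29 ± 0.14 (SE, adjusted p = 0.29 by limma) and in treated against young livers -0.28 ± 0.14 (SE, adjusted p = 0.245 by limma), neither past the threshold.

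The integrins of laminin are Itga3, Itga6, Itga7 and Itgb4. Itga7 was at 1.57, 2.28 and 1.74 TPM in the treated libraries, 2.91, 2.19 and 2.51 TPM in the aged untreated ones and 2.99, 2.11 and 1.96 TPM in the young ones. Itga3 had 1.13, 1.05 and 0.928 TPM in treated livers, 0.963, 0.888 and 1.58 TPM in aged livers without the drug and 1.26, 0.937 and 1.14 TPM in young livers. The libraries gave Itga6 at 0.252, 0.117 and 0.0932 TPM in treated livers, at 0.163, 0.0886 and 0.312 TPM in aged untreated livers and at 0.414, 0.452 and 0.36 TPM in young livers. Itga7, best known from muscle, and Itga3, from epithelia, were tested and overlapped, with log2 fold changes in treated against aged untreated livers of -0.37 and -0.08. Itga6, below the filter, was lower in each library of aged mice than in each young one. Itgb4, its partner in hemidesmosomes, had a mean of 0.0309 TPM.

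Itga1, which pairs with the product of Itgb1 to bind type IV collagen, was the one tested collagen receptor. For Itga1 the values were 1.82, 1.47 and 1.27 TPM in treated livers, 1.6, 1.69 and 1.47 TPM in aged untreated livers and 1.93, 1.48 and 1.92 TPM in young livers. In treated livers Itga10 stood at 0.521, 1.35 and 0.828 TPM, in aged untreated livers at 0.453, 0.497 and 0.3 TPM and in young livers at 0.506, 0.489 and 0.702 TPM. Itga11 was at 0, 0 and 0 TPM in the treated libraries, 0, 0.0206 and 0 TPM in the aged untreated ones and 0.0147, 0 and 0.0455 TPM in the young ones. Itga1 overlapped between all groups, with log2 fold changes of -0.05 in treated against aged untreated, -0.12 in aged untreated against young and -0.18 in treated against young livers (limma adjusted p from 0.532 to 0.887). Itga10, known from cartilage, was higher in each treated library than in each aged untreated one but stayed below the filter, and without the filter its limma adjusted p in that comparison was 0.261. Itga2 had a mean of 0.00196 TPM.

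The leukocyte integrins have 8 genes, of which Itgb2 and Itgal, the chains of the receptor LFA-1 on white blood cells, were tested. Itgb2 had 1.71, 1.14 and 1.41 TPM in treated livers, 1.59, 1.02 and 1.46 TPM in aged livers without the drug and 1.43, 0.99 and 1.54 TPM in young livers. The libraries gave Itgal at 0.603, 0.889 and 0.903 TPM in treated livers, at 1.02, 0.787 and 1.13 TPM in aged untreated livers and at 1.18, 0.754 and 1.03 TPM in young livers. For Itgb7 the values were 0.763, 0.762 and 0.136 TPM in treated livers, 0.372, 0.762 and 1.05 TPM in aged untreated livers and 0.563, 0.464 and 0.595 TPM in young livers. All 3 overlapped between groups. Itga4, which pairs with the products of Itgb1 or Itgb7 to bind VCAM on vessels, is named because it was called without the filter, a choice made after its values were seen. In treated livers Itga4 stood at 0.567, 1.1 and 1.02 TPM, in aged untreated livers at 0.49, 0.443 and 0.331 TPM and in young livers at 0.364, 0.247 and 0.248 TPM. It was higher in each treated library than in each of the other 6. Without the filter its log2 fold change was 0.81 in treated against young livers (limma adjusted p = 0.0468) and 0.58 in treated against aged untreated livers (adjusted p = 0.185), where 0.172% of genes were called.

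Markers of white blood cells were set beside the leukocyte integrins. The 8 neutrophil markers summed to 24.9 to 35.2 TPM in treated, 9.76 to 26.4 TPM in aged untreated and 3.29 to 4.14 TPM in young libraries, with Mmp8, Camp and Ngp at 0 in some. All 3 tested ones rose in treated against young livers, where 2.59% of all genes rose. The 10 Kupffer cell markers, none at 0, summed to 125 to 131 TPM in treated, 127 to 193 TPM in aged untreated and 136 to 218 TPM in young libraries. All 10 were tested, and 4 of them fell in treated against young livers, where 4.29% of all genes fell. The 11 T and NK cell markers summed to 1.85 to 3.11 TPM, 2.22 to 2.95 TPM and 2.58 to 4.17 TPM in treated, aged untreated and young libraries, with Cd3e, Cd3d, Cd8a, Cd8b1, Ncr1 and Gzma at 0 in some. The 5 B cell markers summed to 0.92 to 2.04 TPM, 0.64 to 7.03 TPM and 2.52 to 5.53 TPM in the same order, with Ms4a1 and Pax5 at 0 in some. Their part in the leukocyte integrin values was not tested. The 13 sinusoidal endothelial markers, none at 0, summed to 87 to 106 TPM in treated, 87.8 to 116 TPM in aged untreated and 102 to 111 TPM in young libraries. All 13 were tested, and 1 of them, Lyve1, fell in aged untreated against young livers (log2 fold change -1.22, limma adjusted p = 0.0449), where 0.453% of all genes fell. The 8 cholangiocyte markers summed to 2.69 to 3.96 TPM in treated, 2.38 to 4.12 TPM in aged untreated and 3.01 to 4.5 TPM in young libraries, with Krt7, Cftr and Cldn7 at 0 in some. Sox9, the only 1 of the 8 tested, rose in aged untreated against young livers (log2 fold change 1.03, limma adjusted p = 0.0328), where 0.65% of all genes rose. Over all 8 listed, 1 lay higher and 2 lower without overlap in that comparison, where 6.75% of genes lay higher and 8.72% lower. The sums overlapped.

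Groups without overlap can be counted over the tested members. In treated against aged untreated livers 4 of 24 lay lower (Col5a3, Col27a1, Itga5 and Itga9) and 0 higher, where 16.7% of all genes lay lower and 5.72% higher. In aged untreated against young livers 5 of 24 lay lower (Col1a1, Col1a2, Col3a1, Col4a1 and Col6a1) and 2 higher (Col5a3 and Itga5), where 9.57% of all genes lay lower and 8.82% higher. In treated against young livers 9 of 24 lay lower and 0 higher, where 24.4% lay lower and 9.55% higher. Col1a1, which is in both of the last 2 counts, passed the filter through its young libraries. Over all 81 members listed, tested or not, 4 lay lower and 3 higher in treated against aged untreated livers, where 12.8% of genes listed above 0 lay lower and 4.57% higher. The counts were 12 lower and 3 higher in aged untreated against young livers (8.72% and 6.75% of genes) and 18 lower and 4 higher in treated against young livers (20.2% and 7.16%).

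The proteins that fold, link, cut or bind these chains were read from lists of other genes. Of 18 listed genes of collagen folding and crosslinking, 8 were tested, and 1 rose, in treated against young livers: P4ha2, a prolyl hydroxylase of collagen, with a log2 fold change of 0.76 ± 0.21 (SE, adjusted p = 0.0481 by limma). Among all genes, 2.59% rose in that comparison. P4ha2 was at 2.74, 4.07 and 4 TPM in the treated libraries, 3.62, 3.27 and 2.34 TPM in the aged untreated ones and 2.34, 1.42 and 2.01 TPM in the young ones. The treated libraries lay above the young ones, and aged untreated libraries lay between or among them. The call held in 9 of 19 alternatives, and the losses included the fits without young replicate 1, 2 or 3 (limma adjusted p = 0.0749, 0.14 and 0.115), aged untreated replicate 2 (0.0538) or treated replicate 2 or 3 (0.171 and 0.145). None was called in the other 2 comparisons.

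Of 10 basement membrane partners, 7 were tested. In aged untreated against young livers 1 fell, where 0.453% of all genes fell, and in treated against young livers 2 fell, where 4.29% did. Sparc, a secreted protein that binds collagen, fell in aged untreated against young livers with a log2 fold change of -0.67 ± 0.12 (SE, adjusted p = 0.0261 by limma), and in treated against young livers with a log2 fold change of -0.59 ± 0.12 (SE, adjusted p = 0.0159 by limma). Sparc had 14.7, 13 and 14.7 TPM in treated livers, 11.4, 14.6 and 14.2 TPM in aged livers without the drug and 22.8, 19.7 and 22.3 TPM in young livers. The 6 libraries of aged mice lay below the 3 young ones, as for Col3a1. The fall with age held in 12 of 20 alternatives, and the losses included the fits without young replicate 1, 2 or 3 (limma adjusted p = 0.119, 0.0558 and 0.0919) or aged untreated replicate 1 (0.0885). The fall in treated against young livers held in 17 of 20, and the losses were the fits without young replicate 1 or 3 (0.0701 and 0.0617) or treated replicate 2 (0.0723). Agrn, the heparan sulfate proteoglycan agrin, fell in treated against young livers with a log2 fold change of -0.58 ± 0.15 (SE, adjusted p = 0.0375 by limma). The libraries gave Agrn at 2.76, 3.23 and 2.89 TPM in treated livers, at 3.2, 3.46 and 3.12 TPM in aged untreated livers and at 5.83, 4.12 and 4.25 TPM in young livers. This call held in 9 of 19 alternatives, and the losses included the fits without young replicate 1, 2 or 3 (limma adjusted p = 0.136, 0.0544 and 0.0753) or treated replicate 1, 2 or 3 (0.0984, 0.0848 and 0.106), and with median-of-ratios scaling (0.0852). None of this list was called in treated against aged untreated livers.

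Of 16 matrix proteases and inhibitors, 6 were tested. In treated against aged untreated livers 1 fell, where 0.837% of all genes fell, and in treated against young livers 1 fell, where 4.29% did. Mmp14, a membrane protease that cuts fibrillar collagen, fell in treated against aged untreated livers with a log2 fold change of -0.75 ± 0.16 (SE, adjusted p = 0.0424 by limma). For Mmp14 the values were 7.34, 4.73 and 6.1 TPM in treated livers, 9.22, 11.4 and 10.6 TPM in aged untreated livers and 7.59, 6.73 and 6.04 TPM in young livers. The aged untreated libraries were the highest, as for Col5a3 and Itga5, and the treated and young libraries overlapped. The call held in 7 of 20 alternatives, and the losses included the fits without young replicate 1, 2 or 3 (limma adjusted p = 0.0666, 0.0733 and 0.0594), aged untreated replicate 2 (0.126) or treated replicate 2 or 3 (0.151 and 0.131), and with median-of-ratios scaling (0.0597). Mmp15, a related membrane protease, fell in treated against young livers with a log2 fold change of -0.71 ± 0.14 (SE, adjusted p = 0.016 by limma). In treated livers Mmp15 stood at 7.44, 5.42 and 6.96 TPM, in aged untreated livers at 7.88, 6.67 and 8.54 TPM and in young livers at 10.1, 10.8 and 12.4 TPM. It held in 18 of 20 alternatives, and the losses were the fits without young replicate 3 (limma adjusted p = 0.0694) or treated replicate 2 (0.0695). Timp4 was listed at 0 in all libraries.

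Of 15 other integrin ligands, 9 were tested. In treated against aged untreated livers 1 fell, where 0.837% of all genes fell. In treated against young livers 2 fell and 1 rose, where 4.29% of all genes fell and 2.59% rose. Cdh1, which encodes E-cadherin, a ligand of the integrin with the product of Itgae, fell in treated against aged untreated livers with a log2 fold change of -0.89 ± 0.17 (SE, adjusted p = 0.0313 by limma) and in treated against young livers with a log2 fold change of -1.66 ± 0.17 (SE, adjusted p = 0.00109 by limma). Cdh1 was at 3.9, 2.12 and 2.57 TPM in the treated libraries, 5.45, 5.5 and 5.85 TPM in the aged untreated ones and 9.15, 9.57 and 11 TPM in the young ones. The 3 groups did not overlap. The fall with the drug held in 11 of 20 alternatives, and the losses included the fits without young replicate 1 or 2 (limma adjusted p = 0.058 and 0.0628), aged untreated replicate 2 (0.0863) or treated replicate 2 or 3 (0.113 and 0.124), quantile normalization (0.0535) and the fit of only the 2 groups (0.103). Its fall against young livers held in all 20. Icam1, the ligand of LFA-1 on vessel walls, rose in treated against young livers with a log2 fold change of 1.44 ± 0.26 (SE, adjusted p = 0.011 by limma), and Postn, the matrix protein periostin, fell with a log2 fold change of -0.97 ± 0.23 (SE, adjusted p = 0.0301 by limma). Icam1 had 8.79, 10.2 and 8.45 TPM in treated livers, 10.2, 5.81 and 4.01 TPM in aged livers without the drug and 3.2, 2.63 and 3.36 TPM in young livers. The libraries gave Postn at 1.1, 0.417 and 0.494 TPM in treated livers, at 0.729, 1.17 and 0.818 TPM in aged untreated livers and at 1.53, 1.84 and 1.79 TPM in young livers. In both genes the treated and young libraries stood apart. The Icam1 call held in 19 of 20 alternatives and was lost without treated replicate 2 (limma adjusted p = 0.0591). The Postn call held in 11 of 19, and the losses included quantile normalization (limma adjusted p = 0.0606), no filter (0.0526) and the fits without young replicate 1, 2 or 3 (0.0756, 0.0878 and 0.0994) or treated replicate 2 or 3 (0.116 and 0.0967).

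Of the 21 genes of the integrin adhesion complex 16 were tested, and Actn1, an actinin that ties integrins to actin filaments, fell in treated against young livers with a log2 fold change of -0.87 ± 0.16 (SE, adjusted p = 0.0128 by limma). That was 1 of 16, where 4.29% of all genes fell. For Actn1 the values were 2.98, 2.56 and 2.24 TPM in treated livers, 3.87, 5.2 and 3.26 TPM in aged untreated livers and 5.1, 4.99 and 5.28 TPM in young livers. It held in 16 of 20 alternatives and was lost without young replicate 1 or 3 (limma adjusted p = 0.0534 and 0.0524) or treated replicate 2 or 3 (0.055 and 0.0544). The 12 tested genes of the TGF-beta chain, from ligands to Smad proteins, and the 7 tested other receptors for collagen and laminin held no called gene in any comparison.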

How the data were processed

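RNA abundance was measured in 9 liver libraries made with an Illumina TruSeq RNA kit, paired-end, per the labels' protocols. The authors deposited 1 table of TPM values per library, estimated with kallisto and with mm10 as the build, per the submitters' processing notes. No source used here gives the kallisto version, the transcript annotation or how transcripts were summed to genes. Groups and replicate numbers come from the sample titles. Of 23444 rows, 4 with ambiguous symbols were left out, and no libraries held identical values.

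Values were compared as log2(TPM + 0.5), a scale that understates changes of low genes. The 10161 genes with 1 TPM or more in at least 3 libraries entered a single limma 3.58.1 fit (R 4.3.3) of the 9 libraries with group as the only term, trend and robust variance, two-sided contrasts and Benjamini-Hochberg adjustment over all genes tested. Genes with an adjusted p under 0.05 are called; the fit was tested on simulated data. Alternatives covered pseudocount, filter, scaling, variance model, weights, block and left-out libraries.

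The members and the gene lists were chosen with earlier results of these data known. Named with values in every library are members called in any comparison, tested members without overlap and with an absolute log2 fold change of 0.5 or more, and the 3 highest members of each family. The result of 1 gene that this rule names is not reported here. From other lists, up to 4 called genes are named. Gene positions and promoters are from RefSeq tables of GRCm38.p6, in which all 81 members were found, 58 of them with a promoter.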

Additional observations from a re-analysis of the deposited data

How the results depend on the processing

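In treated against aged untreated livers, 147 genes were called in the fit as reported, 29 without the filter, 271 with array weights, 60 with a replicate block, 35 with only the 2 groups in the fit, and 7 to 392 when 1 library was left out. Of the members, 2 were called as reported, 0 without the filter, 1 (Itga5) with a replicate block, where Col5a3 had a limma adjusted p of 0.0681, 0 with only the 2 groups, and 0 to 2 when 1 library was left out. In aged untreated against young livers, 112 genes were called as reported, 62 without the filter, 66 without trend and robust variance, 490 with array weights, 49 with only the 2 groups, and 15 to 696 when 1 library was left out. Of the members, 1 was called as reported, 0 without the filter, 0 among genes of 5 TPM or more, where Col3a1 was not tested, 2 with array weights (Col3a1 and Itga5), and 0 to 2 when 1 library was left out. In treated against young livers, 699 genes were called as reported, 1354 with array weights, 1293 with only the 2 groups, and 151 to 1263 when 1 library was left out. Of the members, 3 were called as reported, 1 (Col27a1) among genes of 5 TPM or more, 5 with the listed TPM rescaled to the full scale, which added Itga4 and Itga8, and 2 to 3 when 1 library was left out. No called member changed direction under these alternatives in a comparison where it was called. In treated against aged untreated livers, where neither was called, Col3a1 changed sign with median-of-ratios scaling, and Col1a2 and Col3a1 did with quantile normalization. The cause of these shifts was not tested, beyond the change in the genes or samples that a filter or a left-out library brings.

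The replicate numbers do not pair the libraries: same-numbered libraries of different groups had correlations of their deviations from the group means from -0.22 to 0.17 over 9 pairs, and 2 of the 9 were above 0.1. With the replicate block, 60 genes were called in treated against aged untreated livers, against 147 without it. Among the genes of the other lists, the block ended the calls of Mmp14 (limma adjusted p = 0.081) and Cdh1 (0.0663) in treated against aged untreated livers, of Sparc (0.0504) in aged untreated against young livers, and of P4ha2 (0.0898), Agrn (0.0702) and Postn (0.0577) in treated against young livers. Where leaving out a library left a group with 2, the spread was estimated over all groups. Of the 81 members, 57 stayed below the filter, and since TPM keeps no depth no counting error can be given for any value.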
